A study of Mus musculus with 24 samples.

Results

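The immediate early genes followed here are *Fos*, *Fosb*, *Jun*, *Junb*, *Egr1*, *Egr2*, *Ier2*, *Nr4a1*, *Atf3* and *Btg2*, and every probe that the chip annotation assigns to these 10 symbols was taken. They are 10 of the 19057 genes with a symbol on the chip. Of the 45281 probes on the chip (Illumina MouseWG-6 v2), 11 measured them, 1 probe per gene except for *Junb*, which had 2. Distal lung tissue came from female C57BL/6 mice, 12.5 weeks old, 6 mice per group with 1 array per mouse. Saline controls received saline s.c. and the Tween80 vehicle (2.5%) p.o. BLM-treated mice received bleomycin (BLM, a cytostatic drug that damages DNA and is used to model lung fibrosis) s.c. at 50 IE/dose, 3 times per week for 2 weeks, with the same vehicle p.o. EXT5-treated and EXT9-treated mice received the same BLM injections and 30 mg/kg of EXT5 or EXT9 p.o. daily, so both were compared with mice given BLM and vehicle. EXT5 and EXT9 are antagonists of the serotonin receptor 5-HT2B. The model is systemic and low in dose, and 1 piece of distal lung holds many cell types, so that fewer cells of a type and less RNA per cell cannot be told apart.

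Immediate early genes are transcribed within minutes of a stimulus without any need for new protein, and most of their transcripts are short-lived. Growth factors, cytokines, mechanical strain and cell stress switch them on through MAP kinases, which act on ready-made factors such as serum response factor (SRF), its ternary complex partners and CREB. Many of the products are transcription factors. *Fos* and *Jun* proteins pair to form AP-1, the EGR proteins are zinc finger factors, ATF3 is a stress-induced relative of the AP-1 proteins, NR4A1 is an orphan nuclear receptor, and BTG2 restrains proliferation and is also a target of p53. In fibroblasts of injured lung, AP-1 and EGR factors are known to act on genes of the extracellular matrix.

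Early induction of such genes is known to run through short sites upstream of the start, and windows around the start were searched for some of them. RefSeq start-site windows of 300 bases, from 250 before to 50 after the start (GRCm38.p6), were at hand for 8 of the 10 genes, with 12 windows in all since *Egr2* had 5. *Egr1* and *Ier2* had no entry, and sites more than 250 bases before a start lay outside the windows. Both strands were searched for the full cAMP and AP-1 response element TGACNTCA, its core TGACG (which lies within the full element where N is G), the AP-1 site TGANTCA, the CArG box that SRF binds, and the TATA box TATAAA. The windows of *Jun* (chr4:95052173-95052472, minus strand), *Egr2* (chr10:67537619-67537918, plus strand, 1 of its 5 windows), *Atf3* (chr1:191183284-191183583, minus strand) and *Fos* (chr12:85473640-85473939, plus strand) are printed 5′ to 3′ because the results below turn on these genes. Capitals mark the matches.
Jun: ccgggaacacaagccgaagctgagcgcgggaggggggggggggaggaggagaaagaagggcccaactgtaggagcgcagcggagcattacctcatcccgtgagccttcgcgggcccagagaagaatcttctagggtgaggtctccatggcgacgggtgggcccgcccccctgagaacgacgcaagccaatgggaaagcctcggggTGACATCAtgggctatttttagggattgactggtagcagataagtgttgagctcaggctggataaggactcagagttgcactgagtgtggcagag
Egr2: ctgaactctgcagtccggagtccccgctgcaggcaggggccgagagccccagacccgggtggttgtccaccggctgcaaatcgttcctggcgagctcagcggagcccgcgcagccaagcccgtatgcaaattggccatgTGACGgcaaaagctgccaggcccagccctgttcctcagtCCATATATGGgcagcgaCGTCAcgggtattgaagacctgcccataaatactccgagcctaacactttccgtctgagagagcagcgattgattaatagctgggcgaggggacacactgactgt
Atf3: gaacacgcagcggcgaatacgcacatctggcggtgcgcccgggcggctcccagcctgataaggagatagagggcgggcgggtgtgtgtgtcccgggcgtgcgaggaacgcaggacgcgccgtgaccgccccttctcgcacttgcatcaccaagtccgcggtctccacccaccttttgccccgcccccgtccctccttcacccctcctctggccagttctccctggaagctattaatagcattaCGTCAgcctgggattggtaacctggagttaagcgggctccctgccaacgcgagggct
Fos: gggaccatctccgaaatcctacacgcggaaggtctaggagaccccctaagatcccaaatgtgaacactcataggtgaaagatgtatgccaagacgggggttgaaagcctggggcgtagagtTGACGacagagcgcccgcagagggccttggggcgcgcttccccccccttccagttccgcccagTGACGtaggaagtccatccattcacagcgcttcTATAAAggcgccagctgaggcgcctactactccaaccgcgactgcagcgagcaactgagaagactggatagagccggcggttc

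With positions given relative to the start at the first base of the match, *Jun* held TGACATCA at -45. *Egr2* held a CArG box at -72 with TGACG matches at -111 and -55 on either side of it. *Atf3* held a TGACG match at -7, and *Fos* held TGACG at -129 and -66 and TATAAA at -33. Among the 8 genes with a window, TGACG was found in 7 genes, TGACNTCA in 2 (*Jun* and *Btg2*), TATAAA in 2 (*Fos* and *Junb*), the CArG box in 1 (*Egr2*) and TGANTCA in 0. The TATAAA match of *Junb* began at +1, at the start itself. Of all 32851 windows of the same length, 20.81% held TGACG, 8.834% TGACNTCA, 13.62% TATAAA, 1.629% the CArG box and 7.808% TGANTCA. These shares are per window, whereas a gene was counted when any of its windows held a match, and *Egr2* had 5 windows. A match of letters is a description of the window and was not taken as a site in use.

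The deposited signals fell into 2 sets with 1 common distribution each, and each set was treated as 1 array run. In the first run were 3 saline controls and 3 mice given BLM alone. All 12 mice given EXT were in the second, beside 3 more saline controls and 3 more mice given BLM alone. An array had a median signal of about 110.3 in the first run, against 103.3 in the second. Because no EXT array lies in the first run, each change is given from the fit over all 24 arrays, and beside it, where the values differ, from a fit with run as a blocking factor (below: the run block) and from the second-run arrays alone. Some 203 probes stood more than 1.5 apart on the log2 scale between the runs beyond the median difference, and 0 of them belonged to an immediate early gene. So few of all probes passed this limit that the 0 says little about these genes. A run effect at adjusted p under 0.05 was called for 8122 probes. The run difference beyond the median (first minus second) was 0.28 for *Fos*, 0.29 for *Egr1*, 0.28 for *Atf3* and 0.23 for *Egr2*. It was 0.17 for *Fosb*, 0.05 for *Junb* (brighter probe) and -0.15 for *Jun*. The 22640 probes in the brighter 50% (mean log2 signal of at least 6.71) were tested with limma, and 7 of the 11 probes of immediate early genes were among them, for *Fos*, *Fosb*, *Jun*, *Junb*, *Egr1*, *Egr2* and *Atf3*. The second *Junb* probe and the probes of *Ier2*, *Nr4a1* and *Btg2* were dimmer and are described separately. Alveolar type 2 markers gave a summed signal of 31674 to 61121 over all mice, and their 6 genes were all in the brighter 50%. Markers of the airways had signal as well. In saline controls 3 club cell genes summed to 52030.8 to 82212.5 and 8 ciliated cell genes to 6409 to 15520, so these sums do not show how distal a piece was.

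In BLM-treated mice, no immediate early gene was called at an adjusted p under 0.05 in comparison to saline controls. In EXT9-treated mice, *Jun* was 1.71-fold and *Egr2* 1.55-fold higher than in saline controls, and *Atf3* was called as well once the run was taken into account. In EXT5-treated mice *Egr2* was not called against saline controls in the comparison of all arrays, but was called under the run block and some other settings. Between mice of the same group the signals of *Egr1*, *Fos* and *Junb* rose and fell together over a wide range, and no group difference of their tested probes was called.

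**Figure D1:**
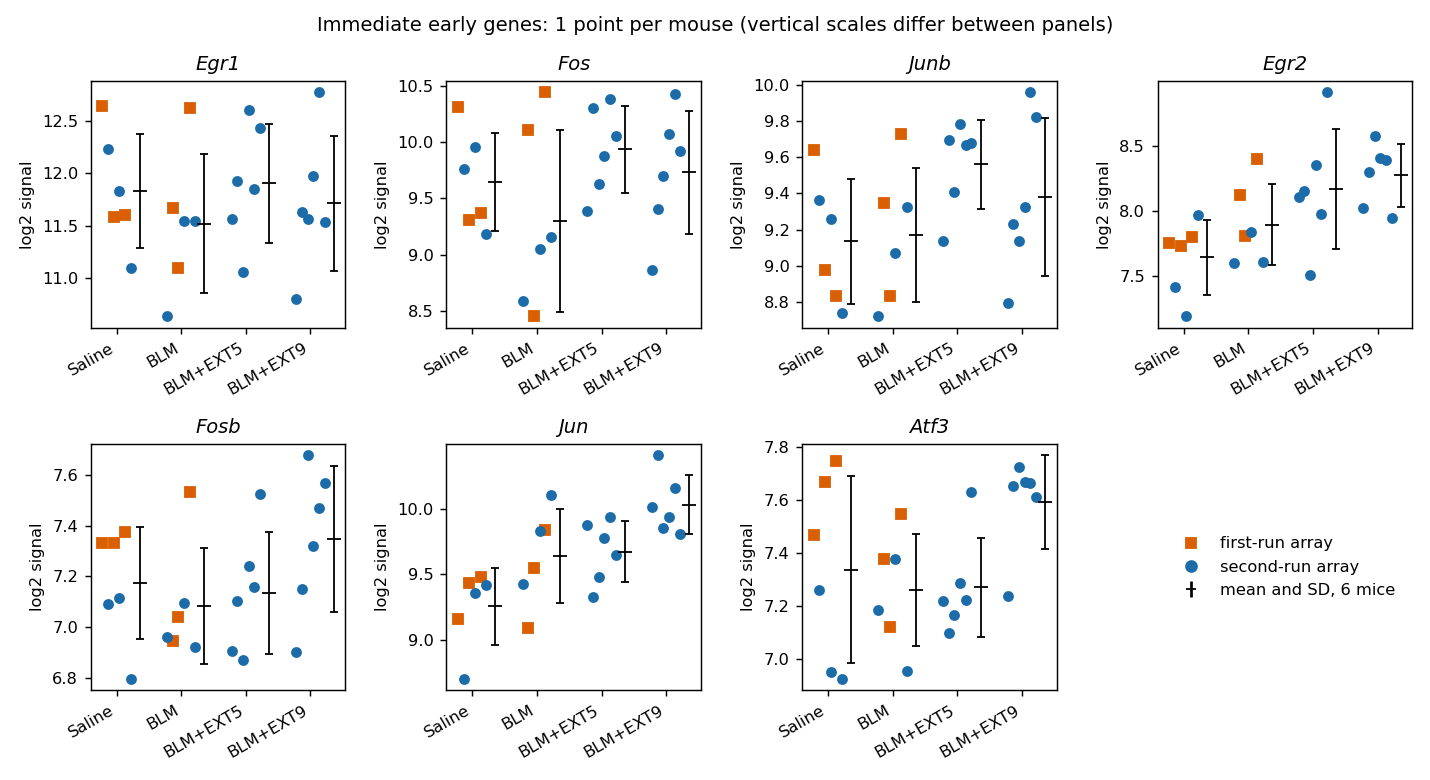
Log2 signal of the 7 tested immediate early genes in each mouse (vertical axis, scale differs between panels) by treatment group (horizontal axis). Orange squares are first-run arrays, blue circles second-run arrays, and bars show the mean and SD of 6 mice. For *Jun*, EXT9-treated mice lie at 9.81 to 10.41 and saline controls at 8.70 to 9.48, whereas *Egr1* spans 10.63 to 12.63 among BLM-treated mice alone.

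*Jun* encodes the founding member of the Jun family, which can pair with itself or with Fos proteins. Its log2 signal was lowest at 8.70, median 9.38 and highest at 9.48 in saline controls. It was 9.09, 9.69 and 10.10 in BLM-treated mice, 9.33, 9.71 and 9.93 in EXT5-treated mice and 9.81, 9.97 and 10.41 in EXT9-treated mice. All 6 EXT9-treated mice were thus above all 6 saline controls, 4 of 6 BLM-treated and 5 of 6 EXT5-treated mice were above the highest control, and the BLM, EXT5 and EXT9 groups overlapped each other. The share of all tested probes whose groups separate in this way was not counted. For EXT9 against saline 23.1% of them were called. *Jun* rose in EXT9-treated mice by 0.78 ± 0.155 on the log2 scale (SE, 95% CI 0.46 to 1.10, adjusted p = 0.00135). The change was 0.75 under the run block (adjusted p = 0.0061), and over the second-run arrays alone it was 0.88 (adjusted p = 0.0104). The difference in BLM-treated mice was 0.38 (95% CI 0.06 to 0.70) and did not pass (limma's adjusted p = 0.486), and in EXT5-treated mice it was 0.42 (adjusted p = 0.0724, and 0.170 under the run block). The latter was called without EXT5 replicate 2, at 0.49 (adjusted p = 0.0473), after joint quantile normalization, at 0.50 (adjusted p = 0.0381), and with array weights, at 0.41 (adjusted p = 0.0165).

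*Junb* encodes a Jun protein that can also oppose *Jun*. In its tested probe the log2 signal was 8.74, 9.12 and 9.64 (lowest, median and highest) in saline controls and 8.72, 9.20 and 9.73 in BLM-treated mice. EXT5-treated mice had 9.13, 9.67 and 9.78, and EXT9-treated mice 8.79, 9.28 and 9.96. All groups overlapped, although 4 of 6 EXT5-treated mice stood above the highest saline control. The changes were 0.04 with BLM, 0.43 with EXT5 (95% CI 0.03 to 0.83, adjusted p = 0.142) and 0.24 with EXT9 (adjusted p = 0.369) in comparison to saline controls, and none was called.

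*Egr2* encodes a zinc finger factor known from nerve myelination and from limiting immune cells, with a role in fibroblasts as well. Its log2 signal was 7.19, 7.74 and 7.97 in saline controls and 7.60, 7.82 and 8.40 in BLM-treated mice. EXT5-treated mice had 7.50, 8.13 and 8.91, and EXT9-treated mice 7.94, 8.35 and 8.57. In each EXT group 5 of 6 mice were above the highest saline control, and in each the remaining mouse lay within the control range. *Egr2* rose in EXT9-treated mice by 0.63 ± 0.183 (SE, 95% CI 0.25 to 1.01, adjusted p = 0.0163), by 0.80 under the run block (adjusted p = 0.0075) and stood 0.75 higher in the second run alone, where the adjusted p was 0.0573. In EXT5-treated mice the change was 0.52 ± 0.183 (adjusted p = 0.0567), and under the run block it was 0.69 (adjusted p = 0.0218). It was called over all arrays without EXT5 replicate 3, at 0.66 (adjusted p = 0.0126), or without saline replicate 6, at 0.59 (adjusted p = 0.0309). The change with BLM alone was 0.25 (95% CI -0.13 to 0.63, adjusted p = 0.819).

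*Atf3* is the stress-response member of the group. Its log2 signal was 6.92, 7.37 and 7.75 in saline controls, 6.96, 7.28 and 7.55 in BLM-treated mice, 7.10, 7.22 and 7.63 in EXT5-treated mice and 7.24, 7.66 and 7.72 in EXT9-treated mice. The saline controls split by run, with a mean of 7.63 on first-run and 7.05 on second-run arrays, and BLM-treated mice stood at 7.35 and 7.17. Of the 6 EXT9-treated mice, 5 were above every BLM-treated mouse, while the sixth, at 7.24, was well inside the other groups. In comparison to saline controls *Atf3* differed by 0.25 ± 0.133 in EXT9-treated mice over all arrays (SE, adjusted p = 0.162), by 0.44 under the run block (adjusted p = 0.0154) and by 0.55 in the second run alone (adjusted p = 0.0178). In comparison to BLM-treated mice the respective values were 0.33 (adjusted p = 0.105), 0.52 (adjusted p = 0.0153) and 0.42 (adjusted p = 0.0822). After joint quantile normalization of all arrays, with no run term, the change against BLM was 0.39 and was called (adjusted p = 0.0465), and that against saline was not.

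*Fos* encodes the partner of Jun proteins in AP-1, and *Fosb* a close relative. The log2 signal of *Fos* was 9.19, 9.57 and 10.31 in saline controls and 8.46, 9.10 and 10.44 in BLM-treated mice, which held both the lowest and the highest value of all 24 mice. EXT5-treated mice had 9.38, 9.97 and 10.38, and EXT9-treated mice 8.87, 9.81 and 10.42. The groups overlapped over most of their ranges. The change with BLM was -0.35 ± 0.306 (SE, 95% CI -0.98 to 0.29, adjusted p = 0.872), made up of 0.0057 among first-run and -0.70 among second-run arrays. *Fosb* ranged from 6.80 to 7.38 in saline controls, 6.92 to 7.53 in BLM-treated, 6.87 to 7.53 in EXT5-treated and 6.90 to 7.68 in EXT9-treated mice. Its changes against saline controls were -0.09 with BLM, -0.04 with EXT5 and 0.17 with EXT9, and under the run block the latter pair were 0.09 and 0.31 (adjusted p = 0.763 and 0.138).

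*Egr1* encodes a zinc finger factor that responds to growth factors and injury and that TGF-β is known to induce in fibroblasts. Its log2 signal was 11.10, 11.72 and 12.64 in saline controls, 10.63, 11.54 and 12.63 in BLM-treated mice, 11.05, 11.89 and 12.60 in EXT5-treated mice and 10.80, 11.60 and 12.77 in EXT9-treated mice. The 4 groups covered nearly the same range. Changes against saline controls were -0.31 ± 0.328 with BLM (SE, 95% CI -0.99 to 0.36), 0.07 ± 0.328 with EXT5 and -0.12 ± 0.328 with EXT9, with adjusted p of 0.901, 0.906 and 0.815. Under the run block the last became 0.07. The interval for BLM reached down to -0.99 and that for EXT5 up to 0.75, so changes of this size could not be told from 0 with 6 mice per group.

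**Figure D2:**
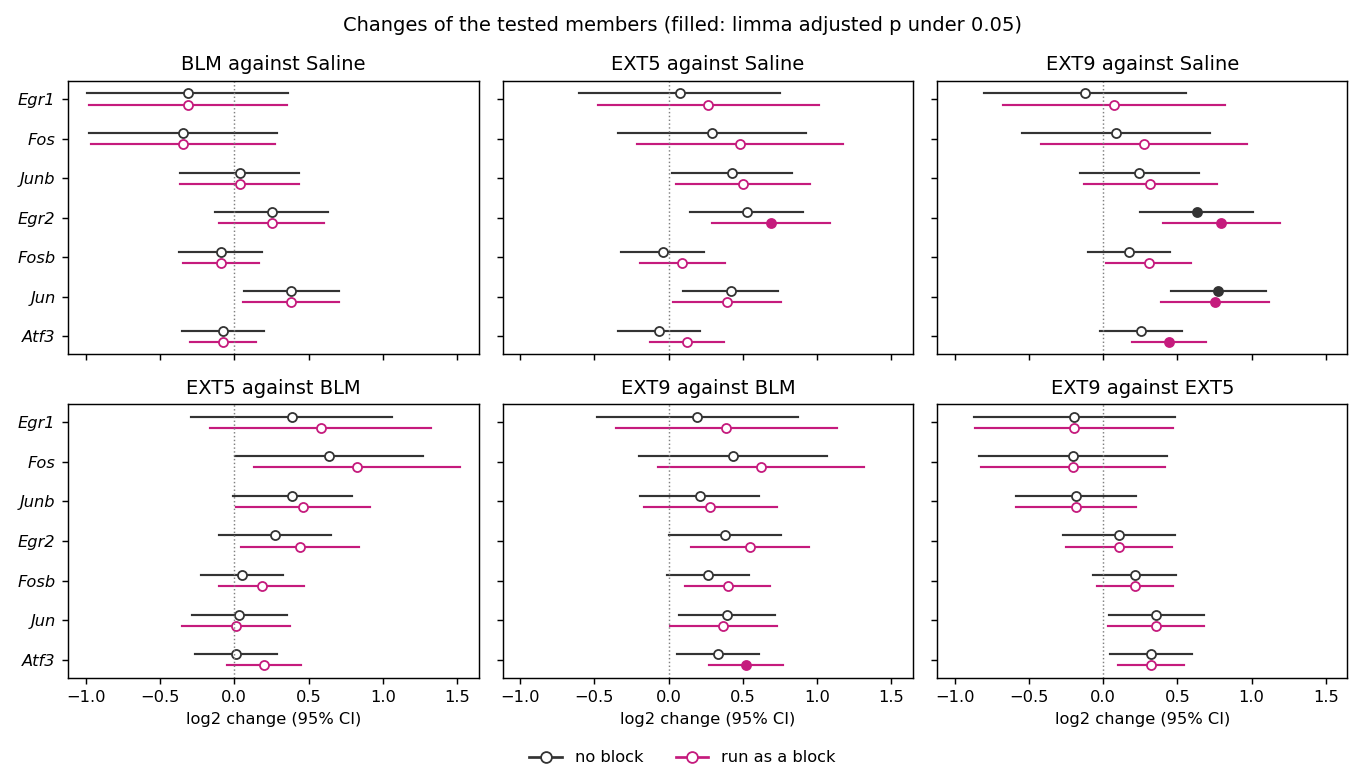
Log2 change of the 7 tested immediate early genes (rows) with its 95% confidence interval (horizontal axis) in the 6 comparisons, without a block (grey) and under the run block (pink), with filled points where limma's adjusted p was under 0.05. Filled points stand at *Jun* and *Egr2* (both fits) and *Atf3* (run block) for EXT9 against saline, at *Egr2* for EXT5 against saline and at *Atf3* for EXT9 against BLM (run block).

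Counted over the 7 tested genes, 0 were called for BLM against saline, where 0.137% of all tested probes were called (0.473% and again 0 genes under the run block). For EXT5 against saline 0 were called beside 14.6% of all probes, and 1 (*Egr2*) beside 10.9% under the run block. For EXT9 against saline 2 were called, both higher, beside 23.1% of all probes and 5.49% counted in the higher direction alone. Under the run block 3 were called, all higher, beside 16.1% and 7.78%, and in the second run alone 2 (*Jun* and *Atf3*) beside 6.36%. The unadjusted p was under 0.05 for 1 of the 7 genes with BLM (*Jun*), 3 with EXT5 and 2 with EXT9. For unadjusted counts, here and below, the share of all tested probes was not counted. It is at least as large as the share at adjusted p, so these counts cannot be set against the latter. The median change of the 7 genes was -0.08 with BLM, 0.29 with EXT5 and 0.24 with EXT9, beside medians over all tested probes of -0.0037, -0.050 and -0.060. Under the run block the medians with EXT5 and EXT9 were 0.39 and 0.32, beside 0.0035 and -0.0045 over all tested probes. The shares of all probes rest in part on single arrays. For BLM against saline the 31 probes called became 201 without saline replicate 6, 67 without BLM replicate 2, 18 and 19 without BLM replicates 5 and 1, and 15 without saline replicate 1 or 2 or BLM replicate 3 or 4, and 0 of the 7 genes were called in each case.

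Whether the compounds moved these genes away from their level under BLM was asked by setting each EXT group against the same BLM-treated mice. For EXT5 against BLM 0 of 7 genes were called, beside 7.28% of all tested probes (4.29% under the run block, again 0 genes), and the unadjusted p was under 0.05 for 1 (*Fos*). The 1649 probes behind that share became 694 without BLM replicate 5, and at most 1037 without BLM replicate 3 or EXT5 replicate 2 or 5. *Fos* had the widest change, 0.64 ± 0.306 (SE, 95% CI 0.0023 to 1.27, adjusted p = 0.206), 0.83 under the run block (adjusted p = 0.160) and 1.00 in the second run alone (adjusted p = 0.0888). In that run the mean log2 signal of *Fos* was 8.93 in 3 BLM-treated mice and 9.94 in 6 EXT5-treated mice, while 3 first-run BLM-treated mice had 9.67. *Junb* differed by 0.39 (adjusted p = 0.222) and *Egr1* by 0.39 (adjusted p = 0.493), and *Jun* by 0.03 (95% CI -0.29 to 0.35).

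For EXT9 against BLM 0 of 7 genes were called over all arrays (unadjusted p under 0.05 for 2), beside 10.1% of all tested probes, and 1 (*Atf3*, above) beside 5.11% under the run block. The 2276 probes behind the former share became 1149, 1219 and 1355 without BLM replicates 5, 2 and 3, and 1349, 1451 and 1471 without EXT9 replicates 5, 2 and 4. *Jun* differed by 0.39 ± 0.155 (SE, 95% CI 0.07 to 0.71, adjusted p = 0.1004), with 2 of 6 EXT9-treated mice above every BLM-treated mouse, and without BLM replicate 6 it was called, at 0.48 (adjusted p = 0.0412). *Egr2* differed by 0.38 (adjusted p = 0.172), and by 0.55 under the run block (adjusted p = 0.0962). *Fos* differed by 0.43 (adjusted p = 0.361) and *Fosb* by 0.26 (adjusted p = 0.194). The estimate was above 0 for all 7 genes in both EXT comparisons with BLM, while 29.5% (EXT5) and 28.8% (EXT9) of all tested probes had an estimate above 0. These shares under the run block were 51.1% and 48.1%, and the estimate was again above 0 for all 7 genes in both. In the second run alone it was above 0 for 6 of 7 genes with EXT5, *Jun* being at -0.11, and for 7 of 7 with EXT9. Several of these genes varied together between mice (below), and both comparisons used the same BLM-treated mice. The signs are thus not separate results, and their number was not tested.

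EXT5 and EXT9 were given at the same dose and time and were compared over the 7 genes. None was called, beside 0.146% of all tested probes (0.446% under the run block, again 0 genes), and the unadjusted p was under 0.05 for 2. The 33 probes behind that share became 1 to 15 with any 1 of the 12 EXT arrays left out, and 1 without saline replicate 1. *Jun* was 0.36 higher with EXT9 (95% CI 0.04 to 0.68, adjusted p = 0.459) and *Atf3* 0.32 higher (95% CI 0.05 to 0.60, adjusted p = 0.429). The intervals of the other 5 genes included 0, with estimates from -0.21 (95% CI -0.84 to 0.43) for *Fos* to 0.21 (95% CI -0.07 to 0.49) for *Fosb*. Differences as low as -0.87 for *Egr1* and -0.84 for *Fos* thus remain within these intervals.

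Mice given saline or BLM alone lie in both runs, so the BLM effect could be compared between them. Its difference between the runs was called for 0 of the 7 genes, with adjusted p = 0.9999 for each. The unadjusted p was under 0.05 for 0. Of all tested probes 0 were called as well, with 3 arrays of each group in each run. The count of 0 therefore says nothing particular to these genes and cannot show that the BLM effect was the same in both runs. *Jun* stood 0.14 higher with BLM on first-run and 0.63 higher on second-run arrays, *Egr2* 0.35 and 0.16 higher. For *Fos*, *Junb* and *Atf3* the estimates had opposite signs in the 2 runs, with -0.28 and 0.13 for *Atf3*.

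The probes of *Ier2*, *Nr4a1* and *Btg2* and the second *Junb* probe lay in the dimmer 50% of the chip and had mean log2 signals of 6.52 to 6.69, with the highest signal of any array at most 1.39 times the lowest. *Ier2* is a nuclear early response protein. Its log2 signal was 6.52 to 6.79 in saline controls, 6.55 to 7.00 in BLM-treated, 6.60 to 6.87 in EXT5-treated and 6.54 to 6.77 in EXT9-treated mice. *Btg2* ranged from 6.40 to 6.65 in saline controls, 6.51 to 6.64 in BLM-treated, 6.46 to 6.74 in EXT5-treated and 6.52 to 6.70 in EXT9-treated mice. These ranges overlapped, and neither gene was called in any comparison when all 45281 probes were tested. *Nr4a1* was 6.51 to 6.82 in saline controls, 6.46 to 6.57 in BLM-treated and 6.45 to 6.55 in EXT5-treated mice. It was 6.43 to 6.50 in EXT9-treated mice, just below the range of the controls, a change of -0.14 (adjusted p = 0.0263, with 13.0% of all 45281 probes called). The share of probes whose groups separate in this way was not counted. The mean signal of this probe lay at percentile 0.70 of all probes, near the bottom of the chip. Its mean in saline controls was 6.71 on first-run and 6.51 on second-run arrays, beside 6.47 in EXT9-treated mice, all from the second run. The second *Junb* probe gave 6.65 to 6.86 in saline controls, 6.68 to 6.85 in BLM-treated, 6.57 to 6.74 in EXT5-treated and 6.50 to 6.65 in EXT9-treated mice. EXT9-treated mice thus met the lower end of the controls, with a change of -0.14 (adjusted p = 0.0341), and -0.15 against BLM (adjusted p = 0.0432, with 4.52% called). Under the run block the *Nr4a1* change against saline was -0.07 (adjusted p = 0.189), and those of *Junb* were -0.09 (adjusted p = 0.202) and -0.11 (adjusted p = 0.210), so that none was called. The *Junb* probes thus differed in direction for EXT9 against saline, and the brighter one was annotated to the RefSeq transcript of the gene and the dimmer one to another cDNA.

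The spread between mice of the same group and run was wide for most of these genes. The SD within group and run was 0.616 for *Egr1*, 0.558 for *Fos* and 0.369 for *Junb* on the log2 scale, beside a median of 0.110 and a 95th percentile of 0.284 over all tested probes. *Egr2* followed with 0.326 and *Jun* with 0.281, while *Fosb* and *Atf3* had 0.233 and 0.186. The SDs thus lay between the 84.3th percentile (*Atf3*) and the 99.7th (*Egr1*) of all tested probes. The highest signal of any mouse was 4.40 times the lowest for *Egr1*, 3.96 times for *Fos*, 3.31 times for *Egr2*, 3.28 times for *Jun* and 2.36 times for *Junb*.

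Mice with a high *Fos* signal for their group and run also had high *Junb* and *Egr1*. Over 24 mice, after the mean of each group and run was taken away, *Fos* and *Junb* had Pearson's r = 0.870 (Spearman's rho 0.836, permutation p = 3e-05, adjusted over 21 pairs 0.000525). Leaving out the 2 mice farthest from the median of *Fos* gave r = 0.846, and r was 0.927 in the first run (6 mice) and 0.860 in the second (18 mice). For *Junb* and *Egr1* r was 0.845 (rho 0.840, permutation p = 5e-05, adjusted 0.000525), with 0.785 without the 2 farthest mice and 0.972 and 0.791 in the runs. For *Fos* and *Egr1* r was 0.785 (rho 0.764, permutation p = 0.00024, adjusted 0.00168), with 0.740 without the 2 farthest and 0.893 and 0.754 in the runs. Permutations were drawn within group and run and were two-sided.

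*Fosb* and *Atf3* went together as well, with r = 0.713 (rho 0.651, permutation p = 0.00055, adjusted 0.00289) and 0.536 without the 2 farthest mice. The other pairs with an adjusted permutation p under 0.05 were *Fosb* with *Egr1* (r = 0.639, rho 0.626, adjusted 0.0202), *Fosb* with *Junb* (r = 0.571, rho 0.571, adjusted 0.0389) and *Egr2* with *Atf3* (r = 0.577, rho 0.552, adjusted 0.0389), which makes 7 of 21 pairs by either measure. Without the 2 farthest mice these 3 had r = 0.549, 0.505 and 0.441, and the lowest r of any of the 3 within a run was 0.483, for *Fosb* with *Junb* in the first run. *Jun* had r between -0.08 and 0.18 to the other 6 genes over both runs, but the runs differed for some of them. With *Fosb* r was 0.818 in the 6 first-run mice and -0.235 in the 18 second-run mice, and with *Atf3* 0.439 and -0.223. Among the 22639 other tested probes *Junb* had the highest r with *Fos* of any probe, and *Fos* the highest with *Junb*. By the same ranking *Egr1* was 2nd for *Junb* and 6th for *Fos*, and *Atf3* 10th for *Fosb*. *Fosb* was 446th for *Junb* and 93rd for *Egr1*, and *Atf3* 85th for *Egr2*, so many probes outside the set followed these genes more closely. How many pairs of other probes reach such r was not counted.

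**Figure D3:**
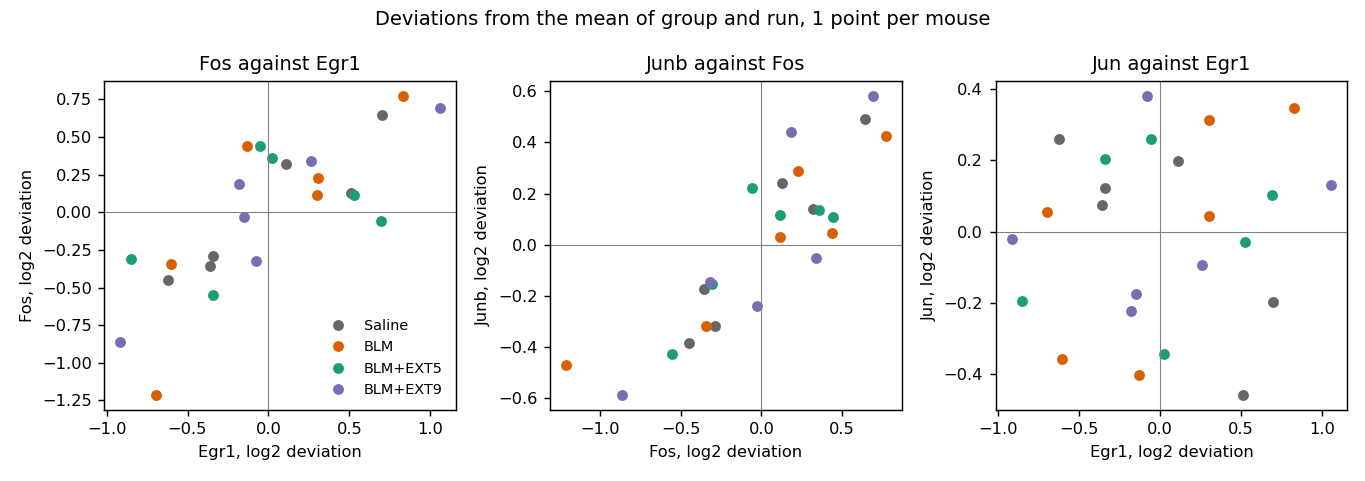
Deviation of the log2 signal from the mean of the mouse's own group and run, for *Fos* against *Egr1*, *Junb* against *Fos* and *Jun* against *Egr1* (1 point per mouse, 24 mice). The first 2 panels show a rising band (r = 0.785 and 0.870), and *Jun* shows none (r = 0.112).

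In BLM-treated mice the pattern was plain in single animals. Replicate 5 had the highest signal of its group for *Fos* (10.44), *Egr1* (12.63) and *Junb* (9.73), and all 7 genes lay above the mean of its group and run, by 0.46 on average. Replicate 3, from the same run, had *Fos* at 8.46, *Egr1* at 11.10 and *Junb* at 8.83, and averaged 0.43 below, with 1 of 7 genes above. Among EXT9-treated mice replicate 5 averaged 0.40 above with 7 of 7 genes above, and replicate 1 averaged 0.49 below with 0 of 7 above. Among EXT5-treated mice the averages ran from -0.36 (replicate 3, 0 of 7 above) to 0.32 (replicate 6, 6 of 7 above). Saline controls ran from -0.15 to 0.21. Deviations from the mean of a group and run sum to 0 in it, so these values describe how far single mice stood apart.

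**Figure D4:**
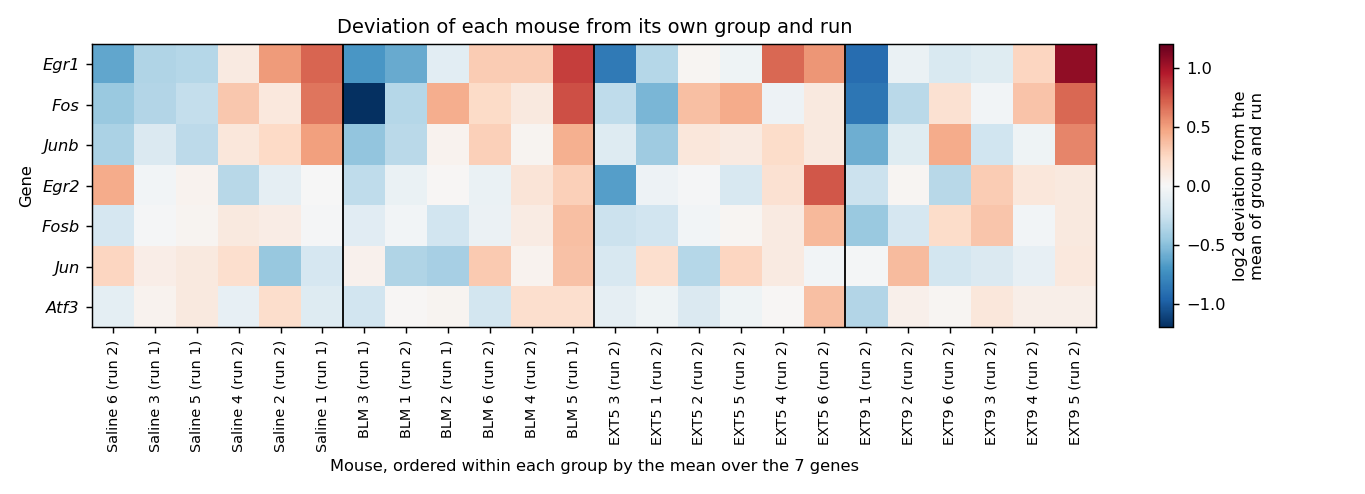
Deviation of the log2 signal of the 7 tested genes (rows) from the mean of the mouse's group and run, for 24 mice (columns, ordered within each group by their mean deviation, which has no other meaning). The extreme columns are EXT9 replicate 1 (mean -0.49) and BLM replicate 5 (mean 0.46).

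The genes most like the mean deviation of the 7 were found among 12050 other named genes, over the same 24 mice and with group and run means taken away. They were *Ccn1* (r = 0.819), which encodes a matrix-associated signalling protein, *Dusp1* (r = 0.810), a phosphatase that switches MAP kinases off, the EGR family member *Egr3* (r = 0.803), the zinc finger repressor *Snai2* (r = 0.752) and *Ch25h* (r = 0.750), which makes 25-hydroxycholesterol. In the second run alone r was 0.755 to 0.836 for these 5 genes. These values describe mice that share their arrays, and no test was made.

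Other early genes were taken from a list of 30, of which 24 had a tested probe. For EXT9 against saline 7 of 24 rose and 0 fell (median change 0.27), beside 5.49% of all tested probes called higher. Under the run block 9 rose and 0 fell (median 0.31), beside 7.78%. *Jund*, which encodes a Jun protein that most cells make without a stimulus, was at 7.88 ± 0.13 in saline controls and 8.37 ± 0.28 in EXT9-treated mice (SD, n = 6), a rise of 0.49 (adjusted p = 0.0016). *Socs3*, a feedback inhibitor of cytokine signalling, rose by 0.57 (adjusted p = 0.0033), *Ccn2*, a matrix-associated target of TGF-β, by 0.55 (adjusted p = 0.0099) and the kinase *Sgk1* by 0.60 (adjusted p = 0.0112). *Per1*, *Klf6* and *Ier3* were the other 3 that rose, of which *Ier3* was not called under the run block (adjusted p = 0.212).

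With BLM alone 0 of the 24 were called (median 0.06, unadjusted p under 0.05 for 4), and with EXT5 0 (median 0.05, unadjusted for 5), or 2 that rose under the run block (*Per1* and *Plk2*). Of all tested probes 0.137% were called with BLM, and 14.6% with EXT5 (10.9% under the run block). Against BLM, *Ccn1* was the gene called in both EXT groups under the run block, beside 4.29% (EXT5) and 5.11% (EXT9) of all tested probes. Its log2 signal was 8.79 ± 0.53 in BLM-treated, 9.48 ± 0.66 in EXT5-treated and 9.58 ± 0.38 in EXT9-treated mice (SD, n = 6), and the changes under the run block were 1.04 (adjusted p = 0.0471) and 1.14 (adjusted p = 0.0272). Without the block they were 0.69 (adjusted p = 0.160) and 0.79 (adjusted p = 0.0888). *Arc* fell by 0.15 with EXT9 against BLM (adjusted p = 0.0470, and 0.249 under the run block). Between EXT9 and EXT5 0 of 24 were called (unadjusted p under 0.05 for 1, *Jund*), beside 0.146% of all tested probes.

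Upstream kinases and factors were taken from a list of 20, of which 14 had a tested probe. *Srf*, the CArG box factor, was at 9.72 ± 0.16 in BLM-treated and 9.15 ± 0.12 in EXT5-treated mice (SD, n = 6) and fell by 0.57 (adjusted p = 0.0065), or by 0.36 under the run block (adjusted p = 0.0131). *Srf* was 0.37 higher with EXT9 than with EXT5 (adjusted p = 0.238, and 0.0173 under the run block). *Mapkapk2*, a kinase downstream of p38, was higher than in saline controls by 0.34 with EXT5 (adjusted p = 0.0038) and by 0.29 with EXT9 (adjusted p = 0.0090), and remained called in both under the run block. *Mapk8*, which encodes the kinase JNK1 that phosphorylates c-Jun, fell by 0.23 with EXT9 against saline (adjusted p = 0.0096), and by 0.19 against BLM (adjusted p = 0.0488, and 0.1003 under the run block). With BLM alone 0 of the 14 were called (unadjusted p under 0.05 for 2), beside 0.137% of all tested probes. The list held 1 gene higher and 1 lower for each EXT group against saline, beside 14.6% (EXT5) and 23.1% (EXT9) of all tested probes called, and 0 higher and 1 lower for each against BLM, beside 7.28% and 10.1%, so that its counts say nothing particular to it. Against saline the run block gave 1 higher and 0 lower with EXT5 and 2 higher and 1 lower with EXT9. Against BLM it gave 0 higher and 1 lower with EXT5, and with EXT9 1 higher (*Map2k1*, 0.30, adjusted p = 0.0262) and 0 lower. The run block called 10.9% (EXT5) and 16.1% (EXT9) of all tested probes against saline. Against BLM it called 4.29% and 5.11%.

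Partners, co-repressors and relatives of the members were taken from a list of 20, of which 17 had a tested probe. *Jdp2*, which encodes a small protein that pairs with Jun proteins and represses AP-1 sites, was at 8.15 ± 0.23 in saline controls, 8.46 ± 0.16 in BLM-treated, 8.35 ± 0.10 in EXT5-treated and 8.80 ± 0.12 in EXT9-treated mice (SD, n = 6). It was higher with EXT9 by 0.65 against saline (adjusted p = 0.0001), 0.34 against BLM (adjusted p = 0.0225) and 0.45 against EXT5 (adjusted p = 0.0391), each also called under the run block. With BLM it was 0.31 higher (adjusted p = 0.232, and 0.0268 under the run block). *Atf2*, which pairs with *Jun* at sites of the TGACNTCA kind, fell with EXT9 by 0.34 against saline (adjusted p = 0.0026) and by 0.27 against BLM (adjusted p = 0.0230, and 0.0819 under the run block). For EXT9 against saline 1 of the 17 rose and 5 fell, beside 5.49% of all tested probes called higher and 17.6% called lower, the others that fell being *Rxrb*, *Atf7*, *Btg1* and *Batf3*. Under the run block 2 rose and 2 fell, beside 7.78% and 8.37%. For EXT5, *Btg1* and *Atf4* fell against saline and the EGR co-repressor *Nab1* and *Atf4* against BLM, of which *Btg1* alone was also called under the run block (adjusted p = 0.0478). Of all tested probes 14.6% were called for EXT5 against saline and 7.28% against BLM (10.9% and 4.29% under the run block).

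Markers of several cell types moved in the same comparison in which *Jun* and *Egr2* rose, EXT9 against saline. In it 5.49% of all tested probes were called higher and 17.6% lower (7.78% and 8.37% under the run block). All 7 tested smooth muscle markers fell (6 under the run block), with a summed signal of 16275 to 29275 in saline controls and 13882 to 16142 in EXT9-treated mice, and 6 of 8 ciliated cell markers fell (6409 to 15520 and 6482 to 8381). All 6 alveolar type 1 markers rose (5 under the run block), with 16410 to 32441 and 31783 to 36651. Muscle and ciliated markers were thus lower and alveolar type 1 markers higher. Erythroid markers rose in 2 of 2 (9926 to 21320 and 24035 to 28272), macrophage markers in 2 of 3 (1964 to 6380 and 5183 to 8210) and alveolar type 2 markers in 2 of 6 (31674 to 58089 and 43545 to 48750), while 1 of 4 cardiac muscle markers fell. Under the run block macrophage markers rose in 3 of 3 and alveolar type 2 markers in 3 of 6. Of 5 fibroblast markers 2 fell and 0 rose, but 0 fell and 1 rose under the run block. In the other 7 marker lists 0 genes were called without the block, and 1 club cell marker rose under it. EXT5 against saline showed the same smooth muscle and ciliated counts, 7 of 7 and 6 of 8 lower, beside 2523 of all 22640 tested probes called lower. Against BLM, *Srf* was called with EXT5 in both fits. *Ccn1* (both EXT groups) and *Atf3* (EXT9) were called under the run block but not in the fit without it. In these comparisons smooth muscle markers fell in 7 of 7 with EXT5 (6 under the run block) and 6 of 7 with EXT9 (3). Ciliated markers fell in 6 of 8 with EXT5 (3 under the run block) and 5 of 8 with EXT9 (1). Of all 22640 tested probes 1421 (EXT5) and 1891 (EXT9) were called lower against BLM without the block. In BLM-treated mice the summed signal was 21573 to 25520 for smooth muscle and 8051 to 13737 for ciliated markers. EXT5-treated mice had 11502 to 16595 and 4826 to 8517. The part of these markers in the changes of *Jun*, *Egr2*, *Atf3*, *Ccn1* and *Srf* was not tested.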

How the data were processed

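RNA from distal lung of 24 mice was hybridised to Illumina MouseWG-6 v2 chips, and the authors deposited 1 table of linear signal intensity, quantile normalized by them, for 45281 probes. The software and background correction are not given in the sources used here. A table of non-normalized signals was not used, since its 48 columns match no sample label. Detection p-values were among them, so dim probes could not be judged against background, and the 50% of probes with the higher mean were tested in their place. Each array holds 1 mouse, and the number of arrays limits the precision.

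Log2 was taken with a pseudocount of 0. Probes were assigned to genes by the chip annotation (34885 probes with 1 symbol, 18 with several, 10378 with none), and where a list gene had several tested probes the one with the highest mean was used. Array runs were inferred from the deposited values: by the design text 5 arrays of saline or BLM mice were repeated with the EXT arrays, but 6 have the distribution of those arrays. Group means were fitted with limma 3.58.1 in R 4.3.3 without covariates, and p-values were adjusted over all 22640 tested probes (Benjamini-Hochberg) within each of 6 comparisons. The fit was tested on simulated data. Correlations used 100000 permutations within group and run. The genes and lists (other early genes, upstream factors, partners and markers of 15 cell types) were chosen with earlier results of these data known. All member probes are named, with up to 4 genes of a list per comparison by smallest p and the 5 genes most like the members. Other list genes were named after their values were seen. Alternatives were median centring, joint quantile normalization, a pseudocount of 16, no filter, the brightest 25% of probes, limma with trend and robust estimation, weights for arrays, fits to the compared groups alone, the run and the replicate number as blocks, each run alone, and leaving out each array. The no-filter fit with the run as a block for dim probes was chosen after seeing the data.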

Additional observations from a re-analysis of the deposited data

Results flagged for a closer look

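Single mice stood apart from the other 5 of their group in 4 of the 44 probe and group combinations examined (Dixon's test at the 95% level on the gap to the nearest mouse), and chance alone gives about 1 in 20. *Fosb* was at 7.53 in BLM replicate 5, beside 6.92 to 7.09 in the others. *Atf3* was at 7.63 in EXT5 replicate 6, beside 7.10 to 7.29, and at 7.24 in EXT9 replicate 1, beside 7.61 to 7.72. The dim *Ier2* probe was at 6.87 in EXT5 replicate 1, beside 6.60 to 6.65. No explanation was tested for any of them.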

How the results depend on the processing

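For EXT5 against saline, where 0 genes were called, 1 was called after median centring, 2 after joint quantile normalization, 1 over the brightest 25% of probes, 2 with array weights and 1 with the run as a block. For EXT9 against saline the 2 called became 4 without a filter on dim probes, which adds the second *Junb* probe and *Nr4a1*. For EXT9 against BLM the 0 became 1 under joint quantile normalization, without the filter and with the run as a block. Leaving out each array in turn gave 0 to 1 called for EXT5 against saline, 0 to 1 for EXT9 against BLM, 2 to 2 for EXT9 against saline and 0 to 0 elsewhere. *Jun* with EXT9 against saline stayed between 0.66 and 0.82 (adjusted p from 0.00089 to 0.0045) and *Egr2* between 0.54 and 0.70 (0.0092 to 0.0389).

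Estimates that changed sign were all uncalled. Against saline these were *Fos* with BLM in the first run alone (0.0057), *Junb* and *Atf3* with BLM in the second run alone (-0.0817 and 0.1262), *Fosb* with EXT5 under median centring (0.0074), joint quantile normalization (0.0211), the run block (0.0923) and the second run alone (0.1336), *Atf3* with EXT5 under the run block (0.123) and the second run alone (0.2243), and *Egr1* with EXT9 under the run block (0.0743). Against BLM it was *Jun* with EXT5 in the second run alone (-0.1144). With 1 array left out, ranges that crossed 0 were, with BLM against saline, -0.0756 to 0.1372 (*Junb*) and -0.1588 to 0.0057 (*Atf3*). With EXT5 against saline they were -0.118 to 0.0128 (*Fosb*), -0.0738 to 0.2431 (*Egr1*) and -0.1487 to 0.0158 (*Atf3*), and with EXT9 against saline -0.0544 to 0.2566 (*Fos*) and -0.3328 to 0.0622 (*Egr1*). Against BLM they were -0.0268 to 0.1415 (*Fosb*), -0.0759 to 0.1269 (*Jun*) and -0.0619 to 0.0673 (*Atf3*) with EXT5 and -0.0188 to 0.4146 (*Egr1*) with EXT9, and for *Egr2* between EXT9 and EXT5 -0.0272 to 0.2552. The cause was not tested.

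No pairing of the mice by replicate number was seen: 36 same-numbered pairs across groups had r from -0.636 to 0.753 (median -0.044, 11 over 0.1), and 6 of 24 arrays were best matched by their own number. Group means but not run means were taken away for these r, so differences between the runs enter them. A replicate block left the counts called at 0, 0, 2, 0, 0 and 0. All EXT arrays lie in 1 run, so run and EXT treatment are told apart only through the saline and BLM arrays of both runs, and dim probes were not tied to a detection call.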
